A study of Mus musculus with 12 samples.

Results

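The tumor necrosis factor (TNF) superfamily was taken as the protein-coding genes named Tnf, Lta, Ltb, Fasl, Cd70, Cd40lg or Tnfsf with a number (ligands), and Fas, Ltbr, Cd27, Cd40 or Tnfrsf with a number (receptors). The name rule found 41 genes among the 41325 listed, 17 ligands and 24 receptors, and used no measured value. Of the receptors, 5 carry a cytoplasmic death domain, 15 signal through TRAF adaptor proteins, and 4 were grouped as decoys. Reads were sufficient to test 31 members, 9 ligands and 22 receptors. RNA came from livers of wild-type C57BL/6J mice, with 4 libraries per group; the labels number the replicates and do not say that each is a separate mouse. Control mice received vehicle, mice with nonalcoholic steatohepatitis (NASH) induced by a diet labelled CDAHFD received vehicle (NASH vehicle), and the third group, NASH mice on that diet, was dosed orally for 8 weeks with 10 mg/kg CDDO-Me. Bardoxolone methyl, its other name, is a synthetic triterpenoid known to activate the transcription factor NRF2. The labels give no age or sex, and nothing in them says that a replicate number ties libraries of different groups to each other.

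Ligands of the superfamily are trimeric, mostly membrane-bound proteins of immune cells, and several are released by proteases such as ADAM17. Receptors with a death domain can assemble complexes that lead to apoptosis or necroptosis, TRAF-binding receptors feed into NF-kappaB and JNK signalling, and decoy receptors bind ligand without a full signalling tail. In liver, TNF and lymphotoxins are known for inflammation and regeneration, FAS and TRAIL receptors for hepatocyte death, and TWEAK with its receptor FN14 for the expansion of biliary progenitor cells.

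Libraries held 28161057 to 33852338 reads assigned to genes, and levels are given as CPM, counts scaled to library size with trimmed mean of M-values (TMM) factors, which compare libraries but not genes. The hepatocyte genes used to check the tissue were abundant in every library, with 8 markers summing to 83179 to 100666 CPM in the controls, 35137 to 56459.7 in NASH vehicle and 36677 to 54128 with CDDO-Me. The library of control 3 stood apart from the other controls: the biliary keratin Krt19 was at 141 CPM against 3.14 to 4.29, and the smooth muscle genes Acta2 at 139 against 1.5 to 2.28 and Myh11 at 105 against 0.845 to 2.01. CDDO-Me 4 held 42.4 CPM of Acta2 and 42.7 of Myh11, against 2.99 to 10.4 and 1.17 to 5.85 in the other CDDO-Me libraries. Counts below are therefore also given without these 2 libraries.

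The comparison of NASH vehicle with control asks which ligands and receptors differ in the diseased liver. In edgeR's quasi-likelihood test, 21 of the 31 tested members were higher in NASH vehicle at an adjusted p under 0.05, 0 were lower and 10 did not pass. Over all 16456 genes tested, 29.6% were higher and 30.0% lower. The median log2 fold change was 1.53 over the tested members and -0.01 over all genes. Higher members were 8 of 9 ligands, 2 of 5 death domain receptors, 8 of 13 TRAF-binding receptors and 3 of 4 decoys. Of the 31 tested members, 17 had fewer than 10 reads in at least 1 control library, so they passed the filter on low counts at least in part through the NASH groups. The counts above and the median therefore support nothing by themselves. Among the other 14, 9 were higher, and the share among all genes with as many control reads was not counted. Without control 3 and CDDO-Me 4, 24 of 33 tested members were higher and 0 lower, beside 31.7% of all genes higher and 30.7% lower. On library totals without TMM, 29 of 31 were higher, beside 9908 of all genes higher and 1326 lower where TMM gave 4874 and 4945, a scaling that moves the median of all genes by 0.62.

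Markers of several cell types moved with these members. All 10 macrophage markers were higher in NASH vehicle (median log2 fold change 3.52), and their summed level was 119.9 to 207 CPM in the controls, 1559 to 2949 in NASH vehicle and 837 to 1542 with CDDO-Me. Of 10 T and NK cell markers 9 were higher, with sums of 3.07 to 6.13, 9.03 to 23.5 and 7.09 to 9.92 CPM. All 3 tested neutrophil markers were higher too, and the defining marker Ly6g was at 0 reads in the controls; no other marker of the lists was at 0 over a whole group. Of 6 tested B and plasma cell markers, 0 passed the test in NASH vehicle against control by edgeR. Of 5 Kupffer cell markers 3 were higher and 1 lower (median log2 fold change 1.11). Dendritic cell markers were higher for 5 of 6 (median log2 fold change 3.07), stellate cell markers for 6 of 7 (1.44) and cholangiocyte markers for 4 of 6 (1.83). All 8 hepatocyte markers were lower (-1.22), and of 8 sinusoidal endothelial markers 5 were lower and 1 higher (-0.95). In bulk liver, fewer cells of a type and less RNA per cell cannot be told apart, and the part of these markers in the members' levels was not tested.

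**Figure D1:**
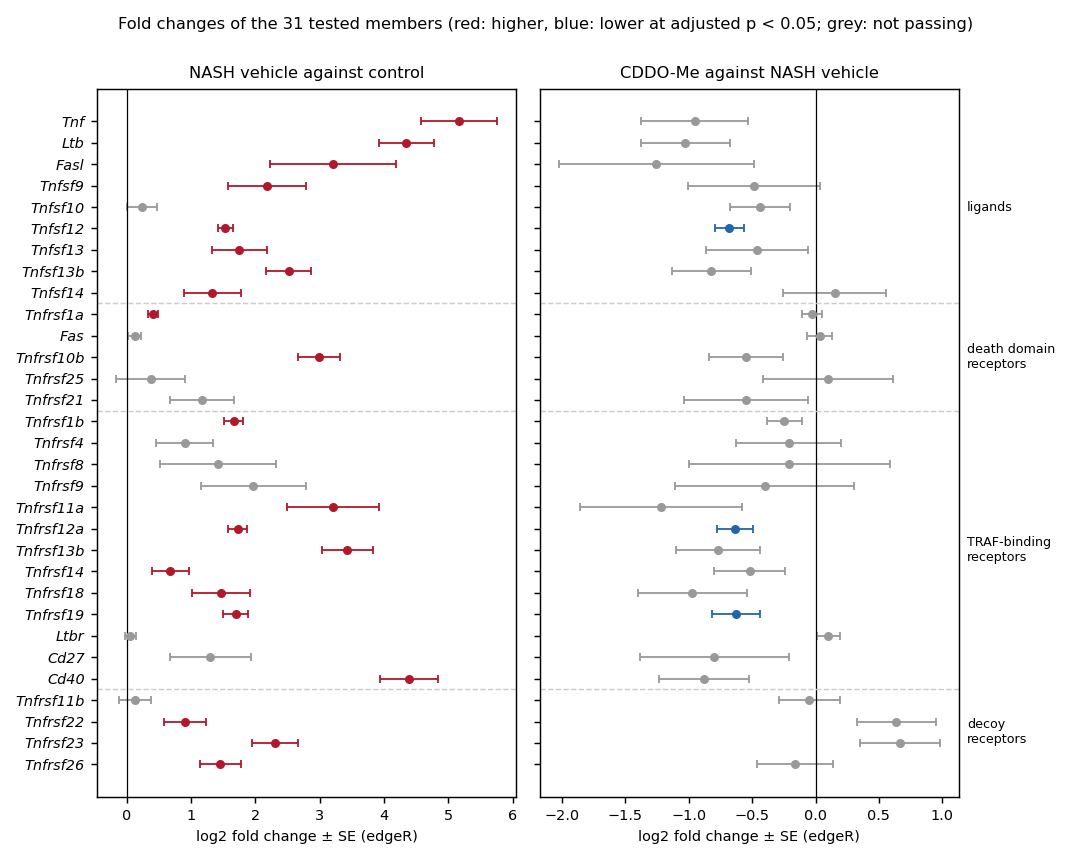
Log2 fold change (horizontal axis, edgeR, bars are SE) of the 31 tested members, ordered by role, for NASH vehicle against control (left) and CDDO-Me against NASH vehicle (right). Red and blue points passed an adjusted p of 0.05. On the left 21 members are red, led by Tnf at 5.17, and on the right only Tnfsf12, Tnfrsf12a and Tnfrsf19 are blue.

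Among the ligands, the largest fitted difference was that of Tnf, the gene of the founding inflammatory cytokine, at chr17:35199381-35202007 on the minus strand of GRCm38. Tnf was at 0.154, 0, 0 and 0.0894 CPM in the controls, 2.56, 2.61, 2.09 and 2.15 in NASH vehicle and 0.825, 1.02, 1.35 and 1.66 with CDDO-Me. The 4 NASH vehicle libraries lay above every other library, and the CDDO-Me libraries lay between them and the controls. In reads, the controls held 6 in all and NASH vehicle 347, a ratio of 37.8 on the CPM scale with a 95% counting interval of 17.2 to 103.8. In every library 64.3 to 66.8% of the counts from 1 to 20 were even, so reads may have been counted in pairs and such intervals may be too narrow. Its log2 fold change in NASH vehicle against control was 5.17 ± 0.59 (SE; adjusted p = 7.53e-06). Ltb, which forms membrane lymphotoxin heterotrimers with Lta, lies beside Tnf at chr17:35194439-35196320 on the plus strand. Ltb was at 0.23, 0.738, 1.18 and 0.447 CPM in the controls, 6.8, 17.5, 12 and 17.3 in NASH vehicle and 8.3, 7.02, 5.4 and 5.56 with CDDO-Me. Every NASH vehicle library exceeded every control, by a log2 fold change of 4.35 ± 0.43 (SE; adjusted p = 3.11e-06), while 1 NASH vehicle library lay within the range of the CDDO-Me group. Lta itself, the third gene of this cluster at chr17:35203165-35205351, had too few reads to test: 0 in all 4 controls, 13 in NASH vehicle and 11 with CDDO-Me.

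The DNA before the start sites of Tnf and Ltb is shown because these neighbouring ligands had the highest fold changes of their role, and that of Tnfrsf12a because its RNA fell with CDDO-Me. RefSeq promoter windows (GRCm38.p6) were matched by symbol for 31 of the 41 members, and the 250 bases before each start were searched on both strands. Capitals mark a match to TATAAA or to the NF-kappaB consensus, and bases inside the deposited gene models are left out.
Tnf, chr17:35202008-35202257, minus strand: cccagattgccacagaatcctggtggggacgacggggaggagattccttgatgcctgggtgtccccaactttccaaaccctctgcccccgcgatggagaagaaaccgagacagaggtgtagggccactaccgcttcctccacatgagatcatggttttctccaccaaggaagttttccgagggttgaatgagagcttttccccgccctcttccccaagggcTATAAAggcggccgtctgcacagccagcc
Ltb, chr17:35194257-35194438, plus strand: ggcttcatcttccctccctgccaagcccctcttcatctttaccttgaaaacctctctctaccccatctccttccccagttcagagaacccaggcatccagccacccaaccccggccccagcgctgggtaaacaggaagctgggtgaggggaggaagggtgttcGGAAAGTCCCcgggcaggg
Tnfrsf12a, chr17:23677469-23677699, minus strand: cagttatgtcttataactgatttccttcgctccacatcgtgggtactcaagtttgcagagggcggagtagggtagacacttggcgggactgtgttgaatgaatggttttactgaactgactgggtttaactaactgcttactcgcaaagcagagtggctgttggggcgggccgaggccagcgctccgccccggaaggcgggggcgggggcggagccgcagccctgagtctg
The TATAAA of Tnf begins at position -29 from the RefSeq start. The match in Ltb, GGAAAGTCCC, begins at position -87. The NF-kappaB consensus occurred in 2 of the 31 matched members, Ltb and Tnfrsf8, and in 7.25% of all 32851 windows. TATAAA occurred in 6 of 31 members and 12.4% of windows, the AP-1 letters TGANTCA in 4 of 31 and 6.75%, and TGACNNNGC, the core of the antioxidant response element that NRF2 binds, in 5 of 31 and 10.2%. In the Tnfrsf12a window none of these letters was found. Each printed window held at most 1 match, so no matches overlapped.

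Tnfsf13b encodes BAFF, a survival factor of B cells. It was at 0.461, 0.369, 0.481 and 0.581 CPM in the controls, 1.88, 2.78, 2.77 and 3.47 in NASH vehicle and 2.18, 0.983, 1.02 and 1.95 with CDDO-Me. NASH vehicle did not overlap the controls, with a log2 fold change of 2.52 ± 0.34 (SE; adjusted p = 3.33e-05). Fasl, the death ligand of cytotoxic lymphocytes, was at 0, 0.0922, 0.074 and 0 CPM in the controls, 0.119, 0.605, 0.344 and 0.583 in NASH vehicle and 0.106, 0, 0.292 and 0.287 with CDDO-Me. The NASH vehicle libraries lay above the controls and overlapped the CDDO-Me libraries. These levels rest on 4 control and 62 NASH vehicle reads, and the log2 fold change was 3.21 ± 0.99 (SE; adjusted p = 0.0123). Tnfsf9, the ligand of the costimulatory receptor 4-1BB, rose by 2.18 ± 0.61 (SE; adjusted p = 0.00717) on the log2 scale from 12 control reads to 87. Its call was lost with unique reads, where the log2 fold change was 2.04 (adjusted p = 0.0583, edgeR).

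Tnfsf12 encodes TWEAK, the ligand of FN14. It was at 10.8, 13, 12.6 and 10.4 CPM in the controls, 30.1, 36.2, 33.4 and 35.2 in NASH vehicle and 21.2, 17.8, 20.3 and 24.9 with CDDO-Me. The 3 groups did not overlap, and the log2 fold change in NASH vehicle against control was 1.53 ± 0.12 (SE; adjusted p = 2.40e-07). Tnfsf13, which encodes the B cell factor APRIL, lies beside it on chromosome 11 and was at 0.615, 0.969, 1.67 and 0.537 CPM in the controls, 2.83, 2.56, 3.24 and 4.22 in NASH vehicle and 1.68, 1.16, 2.33 and 4.13 with CDDO-Me. Its log2 fold change was 1.75 ± 0.43 (SE; adjusted p = 0.0029). Only 11.2% of the Tnfsf12 reads and 20.8% of the Tnfsf13 reads were unique. Both genes overlap the readthrough gene Tnfsfm13 and the antisense gene Tnfsf13os, so their levels cannot be fully told apart. Tnfsfm13 had a log2 fold change of 1.78 ± 0.21 (SE).

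Tnfsf14, the gene of LIGHT, which binds HVEM and the lymphotoxin beta receptor, was at 0.0768, 0.461, 0.37 and 0.179 CPM in the controls, 0.596, 0.742, 0.663 and 0.742 in NASH vehicle and 0.771, 0.562, 0.912 and 0.803 with CDDO-Me. It rose by 1.33 ± 0.44 (SE; adjusted p = 0.019), a call lost without control 4 (1.19, adjusted p = 0.0533, edgeR). Tnfsf10, which encodes the death ligand TRAIL, was the tested ligand that did not pass. It was at 5.99, 2.95, 5.07 and 4.47 CPM in the controls, 6.14, 5.69, 4.17 and 5.81 in NASH vehicle and 4.81, 3.72, 2.81 and 4.73 with CDDO-Me. The groups overlapped, and the log2 fold change was 0.24 ± 0.24 (SE; adjusted p = 0.41) with an approximate 95% interval of -0.23 to 0.70. Tnfsf10 passed on library totals without TMM (0.85, adjusted p = 0.0138, edgeR) and in limma on log2(TPM + 1) and log2(TPM + 0.1) (adjusted p = 0.00456 and 0.00726).

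**Figure D2:**
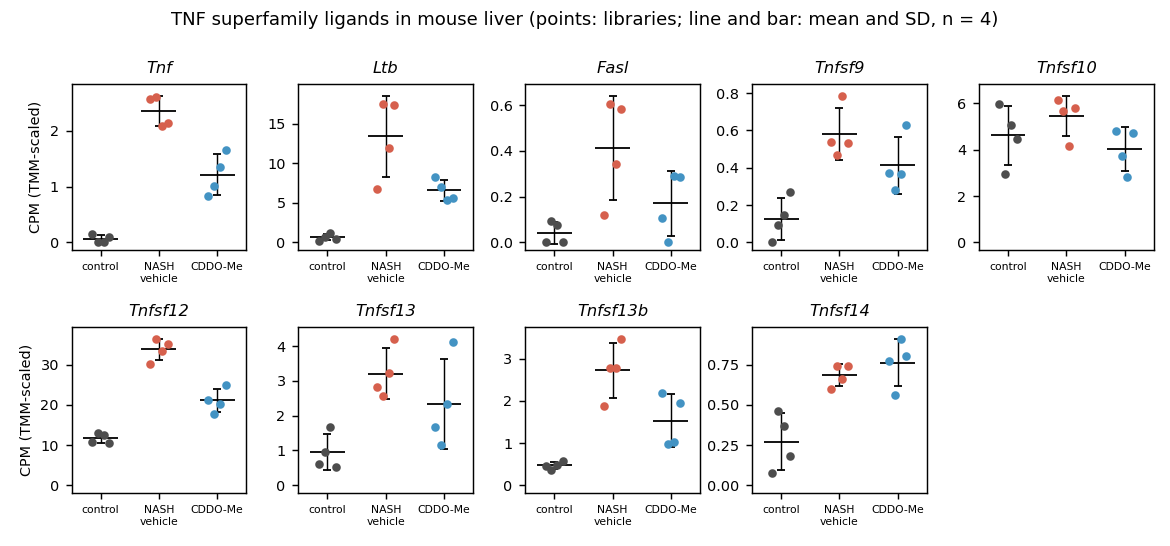
TMM-scaled CPM (vertical axes, each from about 0) of the 9 tested ligands in control, NASH vehicle and CDDO-Me libraries; points are libraries, lines and bars the mean and SD of 4. NASH vehicle lies above control without overlap in every panel except Tnfsf10, and the 3 groups of Tnf and of Tnfsf12 do not overlap. Tnf, Ltb, Fasl, Tnfsf9, Tnfsf13b and Tnfsf14 had fewer than 10 reads in at least 1 control library. The share of all genes without overlap was not counted, so the lack of overlap supports nothing by itself.

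The other 8 ligands had too few reads to test. Cd70, the ligand of CD27, had 0 reads in all 12 libraries. Tnfsf15, the ligand of DR3, had 0, 1 and 1 reads in the controls, NASH vehicle and CDDO-Me. Tnfsf8, the CD30 ligand, had 5, 76 and 28 reads, a ratio of NASH vehicle to control of 9.95 with a 95% counting interval of 4.08 to 31.5. Cd40lg, by which T cells engage CD40, had 2, 19 and 12 reads, and the NASH vehicle to control ratio was 6.22 (1.5 to 55). Tnfsf11, the osteoclast factor RANK ligand, had 1, 14 and 6 reads, and Tnfsf18, the GITR ligand, 2, 10 and 4. Tnfsf4, the OX40 ligand, had 0, 2 and 12 reads. Its CDDO-Me level was at least 3.03-fold higher than in the controls, computed against the 3 reads that a group count of 0 allows. For Lta, the summed NASH vehicle reads were at least 2.84-fold higher than the controls on the same floor, which covers counting error only. Of its 13 NASH vehicle reads, 9 were in NASH vehicle 2 and 0 in NASH vehicle 3, so the groups overlapped. Without a filter on low counts, Lta (adjusted p = 0.0452) and Tnfsf8 (0.00143) passed edgeR's test in NASH vehicle against control.

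Of the 5 death domain receptors, Tnfrsf1a and Tnfrsf10b passed the test. Tnfrsf1a encodes TNF receptor 1, present on most cells, at chr6:125349362-125362484. It was at 78.9, 85.4, 89.5 and 87.2 CPM in the controls, 119, 119, 104 and 111 in NASH vehicle and 112, 115, 114 and 102 with CDDO-Me. NASH vehicle did not overlap the controls, and the log2 fold change was 0.41 ± 0.08 (SE; adjusted p = 5.83e-04). The call held in each of 25 alternatives, but the size depended on the setting, with log2 fold changes of 0.37 to 1.24. Tnfrsf10b, the mouse TRAIL death receptor, was at 0.384, 0.553, 0.888 and 0.268 CPM in the controls, 3.46, 4.15, 5.15 and 4.08 in NASH vehicle and 2.53, 2.74, 2.33 and 3.9 with CDDO-Me. It was higher in all 4 NASH vehicle libraries than in any control, by 2.99 ± 0.33 (SE; adjusted p = 5.67e-06). Fas, the receptor of FAS ligand, was at 17.3, 20.4, 15.6 and 15.5 CPM in the controls, 17.8, 18.5, 18.4 and 20.3 in NASH vehicle and 17.9, 20.6, 20.4 and 18 with CDDO-Me. All 3 groups overlapped, and the log2 fold change of 0.13 ± 0.10 (SE) had an approximate 95% interval of -0.07 to 0.33. On library totals without TMM, which move the median of all genes by 0.62, Fas was higher by 0.76 (adjusted p = 2.92e-05, edgeR). Fas also passed in limma on log2(TPM + 1) and log2(TPM + 0.1) (0.85 and 0.89, adjusted p = 4.05e-05 and 3.85e-05).

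Tnfrsf21, or DR6, was at 5.57, 5.4, 27.1 and 4.34 CPM in the controls, 19.5, 25.6, 22.4 and 28.5 in NASH vehicle and 16.8, 17.9, 15.4 and 15.6 with CDDO-Me. The library of control 3 exceeded the other controls and lay within the NASH vehicle range, and the log2 fold change of 1.17 ± 0.50 (SE; adjusted p = 0.0623) did not pass. Without control 3 it was 2.23 (adjusted p = 9.27e-08, edgeR). Tnfrsf21 passed in 10 of 25 alternatives, some with control 3 kept. These included exon reads (1.25, adjusted p = 0.0497, edgeR), DESeq2 (1.21, adjusted p = 0.0406) and limma-voom (1.56, adjusted p = 0.00226). Control 3 is the library with high Krt19, Acta2 and Myh11, whose part in the Tnfrsf21 level was not tested. Tnfrsf25, or DR3, was at 0.23, 0.369, 0.925 and 0.447 CPM in the controls, 0.477, 0.275, 1.23 and 0.583 in NASH vehicle and 0.585, 0.456, 0.584 and 1.12 with CDDO-Me, with overlapping groups and a log2 fold change of 0.37 ± 0.53 (SE; adjusted p = 0.567).

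Among TRAF-binding receptors, Cd40, the receptor for T cell help on antigen-presenting cells, had the largest fitted fold change. Cd40 was at 0.154, 0.231, 0.222 and 0 CPM in the controls, 2.8, 3.57, 3.51 and 3.26 in NASH vehicle and 2.15, 1.68, 1.5 and 1.81 with CDDO-Me. The 3 groups did not overlap, and NASH vehicle exceeded control by 4.39 ± 0.45 (SE; adjusted p = 3.05e-06) from 15 control reads. Tnfrsf13b encodes TACI, a receptor of BAFF and APRIL, and was at 0.23, 0.277, 0.37 and 0.0894 CPM in the controls, 1.55, 3.6, 2.68 and 2.86 in NASH vehicle and 1.2, 1.68, 1.53 and 1.86 with CDDO-Me. No NASH vehicle library overlapped a control, and the log2 fold change was 3.43 ± 0.39 (SE; adjusted p = 7.29e-06). Tnfrsf11a encodes RANK, the receptor of RANK ligand. It was at 0, 0.738, 3.44 and 0.894 CPM in the controls, 8.5, 12.6, 12.6 and 14 in NASH vehicle and 5.93, 3.61, 5.03 and 5.94 with CDDO-Me. Control 3 was again the highest control, the 3 groups did not overlap, and the log2 fold change was 3.21 ± 0.71 (SE; adjusted p = 0.00227). Without control 3 it was 4.50 (adjusted p = 2.18e-05, edgeR).

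Tnfrsf1b, or TNF receptor 2, is found mainly on immune and endothelial cells. It was at 22.9, 30.7, 28.3 and 26.2 CPM in the controls, 65.1, 90.1, 85.7 and 101 in NASH vehicle and 74.8, 59, 70.7 and 84.3 with CDDO-Me. Every NASH vehicle library exceeded every control, by 1.66 ± 0.14 (SE; adjusted p = 7.27e-07). Tnfrsf12a encodes FN14, the receptor of TWEAK, at chr17:23675445-23677468. It was at 10.5, 7.24, 9.55 and 8.72 CPM in the controls, 26.5, 35, 29.1 and 28.6 in NASH vehicle and 16.2, 24.5, 17.7 and 18.5 with CDDO-Me. The 3 groups did not overlap, and the log2 fold change was 1.72 ± 0.15 (SE; adjusted p = 7.02e-07). Tnfrsf19, or TROY, an orphan receptor known from epithelial stem cells, was at 4.92, 4.1, 5.37 and 5.99 CPM in the controls, 12.8, 19.5, 15.5 and 18.1 in NASH vehicle and 11.9, 9.48, 7.62 and 13.6 with CDDO-Me. It rose by 1.69 ± 0.20 (SE; adjusted p = 7.86e-06), and 1 CDDO-Me library lay within the NASH vehicle range.

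Tnfrsf18, or GITR, was at 0.615, 0.323, 0.555 and 0.268 CPM in the controls, 0.805, 1.68, 1.5 and 0.954 in NASH vehicle and 0.612, 0.281, 0.511 and 1.09 with CDDO-Me and rose by 1.47 ± 0.45 (SE; adjusted p = 0.0122), though only 30.4% of its reads were unique. Tnfrsf14, or HVEM, the receptor of LIGHT, was at 3.42, 3.23, 2.96 and 1.21 CPM in the controls, 4.05, 3.98, 4.84 and 4.51 in NASH vehicle and 3.8, 2.56, 2.37 and 3.35 with CDDO-Me. Its log2 fold change of 0.68 ± 0.28 (SE; adjusted p = 0.0495) only just passed and was lost on leaving out any 1 of 11 of the 12 libraries, with adjusted p of 0.0514 to 0.11 (edgeR). Ltbr, the lymphotoxin beta receptor, was at 79.2, 79.1, 63.6 and 69.8 CPM in the controls, 78.9, 78, 72.4 and 74.2 in NASH vehicle and 79.5, 85.8, 87 and 73.1 with CDDO-Me. Its groups overlapped, and the log2 fold change of 0.06 ± 0.09 (SE) had an approximate 95% interval of -0.12 to 0.23. On library totals without TMM, Ltbr was higher by 0.69 (adjusted p = 1.85e-06, edgeR), close to the 0.62 shift of all genes. Ltbr also passed in limma on log2(TPM + 1) and log2(TPM + 0.1) (0.93 and 0.94, adjusted p = 7.19e-07 and 6.86e-07).

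The other costimulatory receptors of T cells were at low levels and did not pass. Tnfrsf4, or OX40, had 24 control and 68 NASH vehicle reads and a log2 fold change of 0.90 ± 0.44 (SE; adjusted p = 0.0954). Tnfrsf9, or 4-1BB, had 12 and 71 reads and 1.97 ± 0.82 (SE; adjusted p = 0.0517). Both were called without control 1, at 1.42 (adjusted p = 0.0177) and 3.94 (0.00259) in edgeR, and Tnfrsf9 also without NASH vehicle 3 (0.0416). In all, Tnfrsf4 passed in 4 of 24 alternatives and Tnfrsf9 in 9 of 22. For Tnfrsf9 these included exon reads (3.32, adjusted p = 0.00388, edgeR), DESeq2 (adjusted p = 0.0306) and limma-voom (adjusted p = 0.0134). Cd27, which overlaps Vamp1, had 16 reads in the controls, exactly 4 in each, and 62 in NASH vehicle, and only 32.1% of its reads were unique. Its groups did not overlap, but with 1.30 ± 0.63 (SE; adjusted p = 0.0916) it did not pass. It passed in 5 alternatives: limma on both TPM scales (adjusted p = 0.00169 and 0.00864), library totals without TMM (1.93, adjusted p = 0.0188, edgeR), and edgeR without CDDO-Me 3 (1.30, adjusted p = 0.0181) and with only the 8 libraries of the groups compared (1.34, adjusted p = 0.0164). Tnfrsf8, or CD30, had 10 control reads, all in control 3, and 40 in NASH vehicle; its log2 fold change was 1.42 ± 0.91 (SE; adjusted p = 0.193) with control 3 and 6.12 (adjusted p = 0.000923, edgeR) without it, where all remaining controls are at 0 and the size depends on the prior count. With control 3 kept, Tnfrsf8 passed in limma-voom (2.62, adjusted p = 0.012) and in limma on log2(TPM + 0.1) (0.95, adjusted p = 0.0319). Tnfrsf13c, the BAFF receptor, and Tnfrsf17, or BCMA, had 9 and 0 control reads against 46 and 2 in NASH vehicle and were not tested.

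Of the 4 decoys, Tnfrsf22, Tnfrsf23 and Tnfrsf26 passed. Tnfrsf23 and Tnfrsf22 encode mouse decoy receptors of TRAIL and lie side by side on chromosome 7 with Tnfrsf26. Tnfrsf23 was at 0.538, 0.184, 0.74 and 0.447 CPM in the controls, 2.36, 1.65, 2.63 and 3.02 in NASH vehicle and 3.99, 4.35, 2.55 and 4.39 with CDDO-Me. NASH vehicle exceeded control by 2.31 ± 0.36 (SE; adjusted p = 9.09e-05). Tnfrsf22 was at 0.653, 0.461, 0.925 and 0.805 CPM in the controls, 0.716, 1.29, 1.67 and 1.67 in NASH vehicle and 2.45, 1.82, 1.68 and 2.38 with CDDO-Me. Its call, 0.90 ± 0.33 (SE; adjusted p = 0.0292), was lost with unique reads (1.12, adjusted p = 0.245, edgeR) and without any 1 of control 1, control 2, NASH vehicle 3 or NASH vehicle 4 (adjusted p of 0.0625 to 0.0842), and the groups overlapped. Only 15.0% of Tnfrsf22 and 22.7% of Tnfrsf23 reads were unique. Tnfrsf26 was at 0.653, 0.553, 0.444 and 0.537 CPM in the controls, 1.01, 2.17, 1.47 and 1.35 in NASH vehicle and 1.28, 1.05, 1.2 and 1.84 with CDDO-Me, with all reads unique and a log2 fold change of 1.45 ± 0.32 (SE; adjusted p = 0.00143). Tnfrsf11b encodes osteoprotegerin, the soluble decoy of RANK ligand. It was at 3.11, 2.03, 2.63 and 3.26 CPM in the controls, 2.59, 3.63, 3.46 and 2.39 in NASH vehicle and 2.05, 3.54, 3.43 and 2.67 with CDDO-Me, with a log2 fold change of 0.13 ± 0.24 (SE) and an approximate 95% interval of -0.35 to 0.61. Tnfrsf11b passed on library totals without TMM (0.76, adjusted p = 0.0167, edgeR) and in both limma fits on TPM (adjusted p = 0.00378 and 0.00408).

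**Figure D3:**
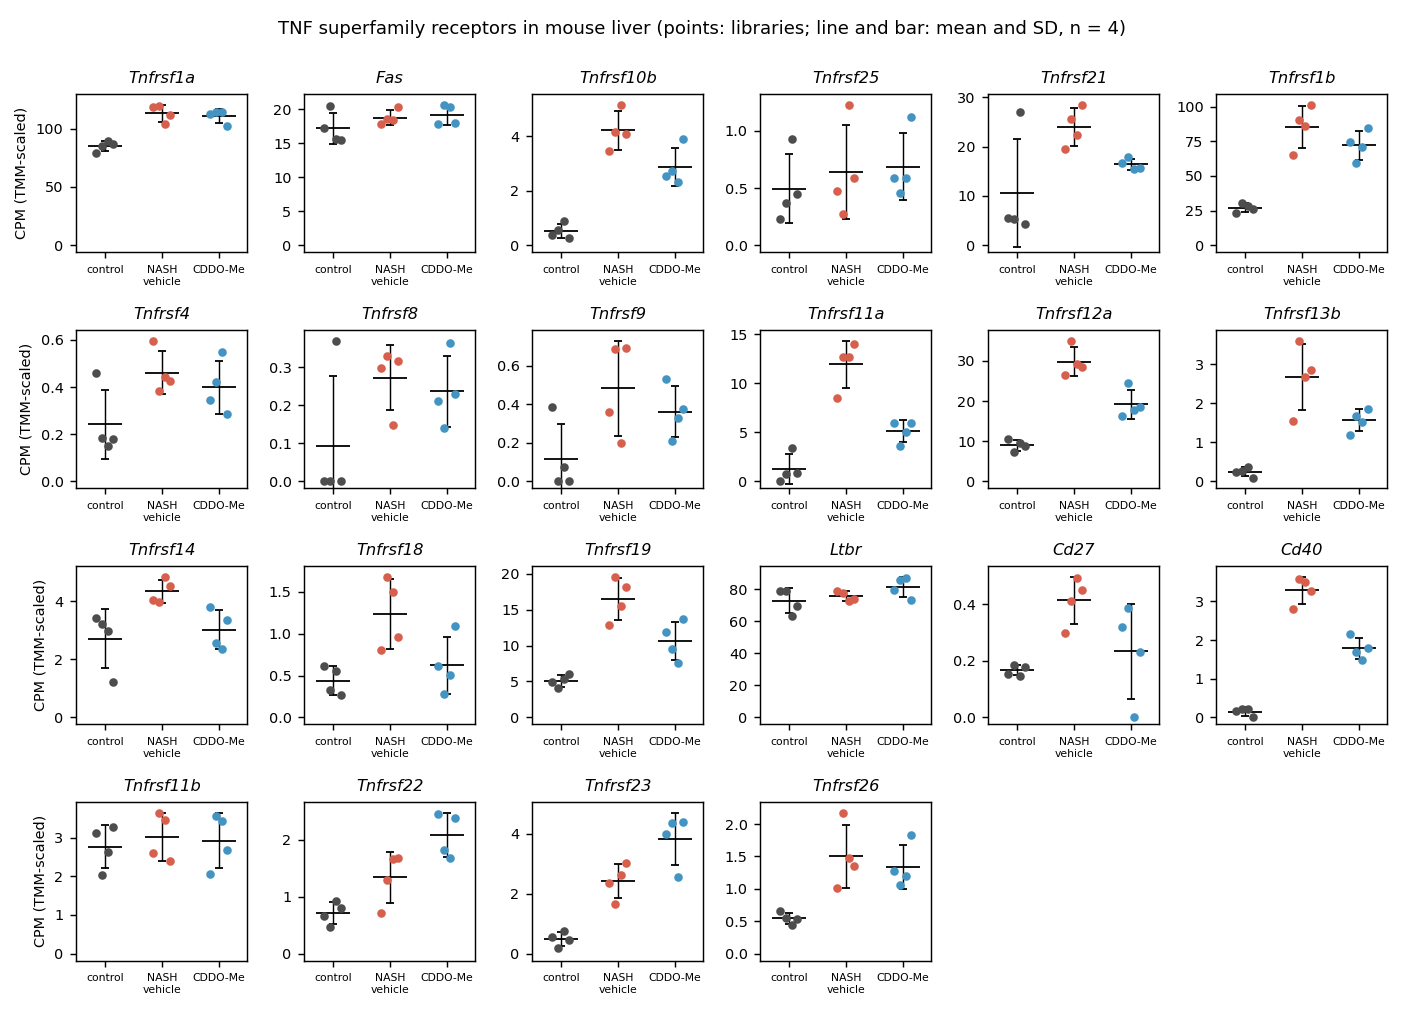
TMM-scaled CPM (vertical axes, each from about 0) of the 22 tested receptors in control, NASH vehicle and CDDO-Me libraries; points are libraries, lines and bars the mean and SD of 4. The groups of Fas, Ltbr and Tnfrsf11b overlap in all 3 comparisons, those of Cd40, Tnfrsf12a and Tnfrsf11a in none, and control 3 is the high control point of Tnfrsf21, Tnfrsf8 and Tnfrsf11a.

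Levels per transcript length, the deposited TPM values, allow genes to be ordered. In NASH vehicle the highest member was Tnfrsf1a, with a median of 134 TPM and a range of 129 to 140.3 over 4 libraries. Ltbr followed at 96.4 TPM (93.9 to 106), with no overlap with Tnfrsf1a. Tnfrsf1b at 71.3 (46.3 to 79.2) and Tnfsf12 at 70 (54.8 to 76.1) overlapped each other. Tnfrsf12a at 49.6 TPM, Ltb at 30.6, Fas at 28 and Tnfrsf21 at 18.6 came next, the ranges of Ltb and Fas overlapping. In the controls Tnfrsf1a (56.6 TPM), Ltbr (51.1), Fas (14.8), Tnfsf12 (12.9) and Tnfrsf1b (12) led, and the median of Ltb was 0.615. Tnfsf12 was the highest ligand in all 3 groups by deposited TPM, with 34.4 TPM in CDDO-Me. Only 11.2% of Tnfsf12 reads were unique, against 100% of Ltb reads, so the place of Tnfsf12 in this order is uncertain. Tnf itself had a median of only 4.26 TPM in NASH vehicle, 1.62 with CDDO-Me and 0.0482 in the controls.

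The ratio of Tnfrsf1b to Tnfrsf1a, the 2 receptors of TNF, was looked at after their values were seen. Within each library it was 0.185, 0.235, 0.209 and 0.191 in the controls, 0.358, 0.498, 0.538 and 0.594 in NASH vehicle and 0.43, 0.334, 0.393 and 0.531 with CDDO-Me. Both NASH groups lay above all controls, and they overlapped each other. Means were 0.205 ± 0.0227, 0.497 ± 0.1005 and 0.422 ± 0.0828 (SD, n = 4). In a two-sided exact permutation test, each NASH group against control gave p = 0.0286, the smallest that 4 against 4 allows (0.0429 after Benjamini-Hochberg adjustment over 3 comparisons), and CDDO-Me against NASH vehicle gave an exact p = 0.286. The adjustment does not cover the choice of this pair after its values were seen, so these p-values support nothing by themselves.

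**Figure D4:**
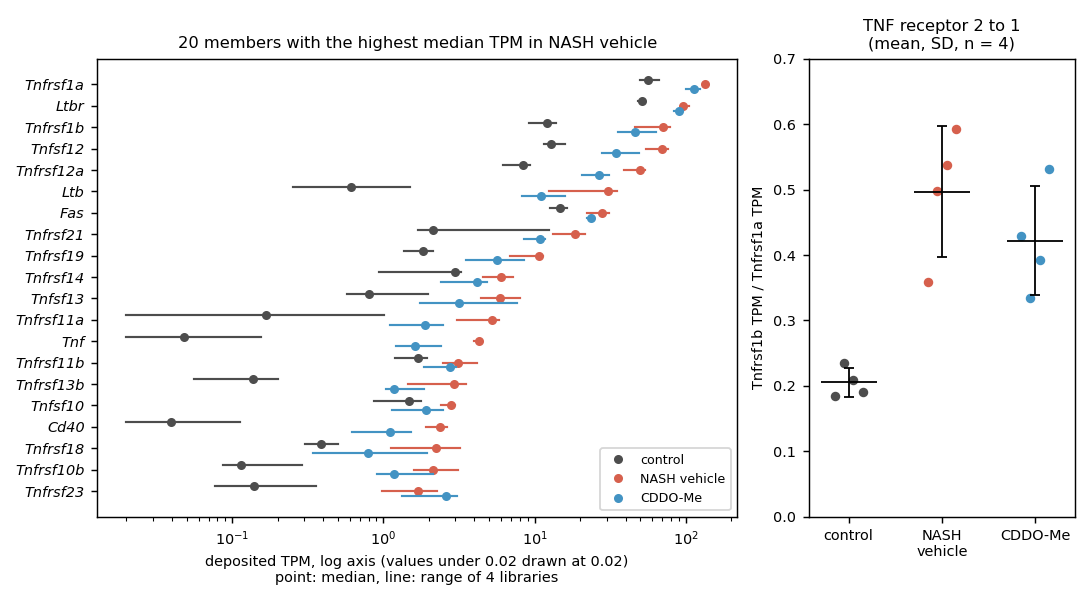
Left, deposited TPM (log axis) of the 20 members with the highest median in NASH vehicle, points being medians and lines the range of 4 libraries per group; right, Tnfrsf1b TPM divided by Tnfrsf1a TPM in each library with mean and SD. Tnfrsf1a is highest in NASH vehicle at a median of 134 TPM, and the mean ratio is 0.205 in the controls and 0.497 in NASH vehicle.

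The comparison of CDDO-Me with NASH vehicle asks what 8 weeks of the compound changed in the diseased liver. Only 3 of the 31 tested members passed edgeR's test: Tnfsf12, Tnfrsf12a and Tnfrsf19 were lower, 0 were higher and 28 did not pass. Over all genes tested, 7.24% were lower and 9.39% higher, so the share of lower members, 9.68%, was close to the background. The median log2 fold change was -0.48 over the tested members and -0.01 over all genes, with 25 of 31 fold changes below 0. Of the 31, 17 had fewer than 10 reads in at least 1 control library and passed the filter at least in part through the NASH groups. The median and the count of signs therefore support nothing by themselves. Without control 3 and CDDO-Me 4, 10 of 33 tested members were lower and 0 higher, beside 12.1% of all genes lower. On library totals without TMM the members lower were again 3, beside 926 of all genes higher and 1589 lower where TMM gave 1545 and 1191. The NASH vehicle libraries are shared with the comparison against control. Of the macrophage markers 7 of 10 fell (median log2 fold change -1.16) and of the T and NK cell markers 3 of 10, while 6 of 8 sinusoidal endothelial markers rose. Of 5 Kupffer cell and 6 dendritic cell markers 0 were called higher or lower (medians 0.08 and -0.32). Of 6 tested B and plasma cell markers 1 was higher and 0 lower (0.83), and of 3 tested neutrophil markers 1 was lower and 0 higher (-0.37). The part of these cells in the members' levels was not tested.

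The TWEAK ligand and its receptor were both among the 3 that fell. With the values given above, Tnfsf12 fell to a mean of 21.1 ± 2.94 CPM from 33.8 ± 2.68 (SD, n = 4), a log2 fold change of -0.68 ± 0.11 (SE; adjusted p = 0.00125) in edgeR. It was lower in all 4 CDDO-Me libraries than in any NASH vehicle library. With unique reads alone the size was -0.60, but the call was lost (adjusted p = 0.189, edgeR). Tnfrsf12a fell to 19.2 ± 3.65 from 29.8 ± 3.65 CPM, a change of -0.63 ± 0.14 (SE; adjusted p = 0.00916) on the log2 scale, also with no overlap. All its reads were unique, and the call held in each of 25 alternatives.

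Tnfrsf19 fell to 10.7 ± 2.65 from 16.5 ± 2.98 CPM, a log2 fold change of -0.62 ± 0.19 (SE; adjusted p = 0.036). The groups overlapped, and the call was lost without any 1 of NASH vehicle 2, 3 and 4 or CDDO-Me 1, 2 and 3, where adjusted p ranged from 0.051 to 0.109 (edgeR). Of the cell markers measured, 3 of 7 stellate cell genes and 1 of 6 cholangiocyte genes were lower with CDDO-Me, and their summed levels were 470.1 to 734 and 451 to 1090 CPM in NASH vehicle against 410.03 to 598 and 379 to 856. Their part in the Tnfrsf12a and Tnfrsf19 levels was not tested.

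Some members had groups that did not overlap without passing the test. Tnf, at 2.09 to 2.61 CPM in NASH vehicle and 0.825 to 1.66 with CDDO-Me, had a log2 fold change of -0.95 ± 0.42 (SE; adjusted p = 0.144). Cd40 had -0.88 ± 0.35 (SE; adjusted p = 0.108), Tnfrsf11a -1.22 ± 0.64 (SE; adjusted p = 0.226) and Tnfrsf14 -0.52 ± 0.28 (SE; adjusted p = 0.226), each lower in all 4 CDDO-Me libraries than in any NASH vehicle library. Tnfrsf21 had -0.55 ± 0.49 (SE; adjusted p = 0.49), and -0.55 (adjusted p = 0.00773, edgeR) when control 3, which is in neither group, was left out of the fit. Cd40 passed without control 4 (adjusted p = 0.0183) and Tnfrsf11a without control 1 (0.0474) or control 3 (0.0423) in edgeR. Tnf, Cd40 and Tnfrsf11a passed in limma-voom, and Tnf and Cd40 also in DESeq2.

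Other ligands with fold changes below 0 were Ltb at -1.03 ± 0.35 (SE; adjusted p = 0.0635), Tnfsf13b at -0.82 ± 0.31 (SE; adjusted p = 0.0878), Fasl at -1.25 ± 0.77 (SE; adjusted p = 0.298), Tnfsf13 at -0.46 ± 0.40 (SE; adjusted p = 0.475), Tnfsf9 at -0.48 ± 0.52 (SE; adjusted p = 0.577) and Tnfsf10 at -0.44 ± 0.24 (SE; adjusted p = 0.234). Ltb passed without any 1 of control 1, control 3 or NASH vehicle 1, with adjusted p of 0.0171 to 0.0371 (edgeR). Among the receptors, Tnfrsf18 had -0.97 ± 0.43 (SE; adjusted p = 0.143), which passed without CDDO-Me 4 at -1.38 (adjusted p = 0.0445, edgeR). Tnfrsf13b had -0.77 ± 0.33 (SE; adjusted p = 0.13) and Tnfrsf10b -0.55 ± 0.29 (SE; adjusted p = 0.222). Tnfrsf1b had -0.24 ± 0.14 (SE; adjusted p = 0.259), with an approximate 95% interval of -0.52 to 0.03. The remaining T cell receptors, Tnfrsf4, Tnfrsf8, Tnfrsf9 and Cd27, had fold changes of -0.80 to -0.21 with SE of 0.42 to 0.79.

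The broadly expressed receptors had small fitted differences. For CDDO-Me against NASH vehicle, Tnfrsf1a had -0.03 ± 0.08 (SE; approximate 95% interval -0.19 to 0.13), Fas 0.03 ± 0.10 (-0.17 to 0.23) and Ltbr 0.10 ± 0.09 (-0.07 to 0.28). The signs of Fas and Ltbr turned to below 0 on library totals without TMM, which move the median of all genes by -0.16. Tnfsf14 had 0.15 ± 0.40 with an interval of -0.64 to 0.94, and its sign turned as well. Tnfrsf11b had -0.05 ± 0.24 (-0.52 to 0.42), Tnfrsf25 0.10 ± 0.51 (-0.91 to 1.10) and Tnfrsf26 -0.16 ± 0.30 (-0.74 to 0.42). The sign of Tnfrsf25 turned as well, to -0.06 on library totals and -0.25 without control 3 and CDDO-Me 4, and without those libraries that of Tnfrsf1a turned to 0.01.

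The decoy receptors Tnfrsf22 and Tnfrsf23 had the highest fold changes of the 31. Tnfrsf22 had 0.64 ± 0.31 (SE; adjusted p = 0.186), with all 4 CDDO-Me libraries above all NASH vehicle libraries, the nearest being 1.68 against 1.67 CPM. Tnfrsf23 had 0.66 ± 0.32 (SE; adjusted p = 0.173), and 3 of 4 CDDO-Me libraries were above the highest NASH vehicle library. Neither passed, and their signs were above 0 under each of 25 alternatives, with log2 fold changes of 0.24 to 0.76 and 0.31 to 0.81. The alternatives refit the same libraries. Only 15.0% of Tnfrsf22 and 22.7% of Tnfrsf23 reads were unique, so the 2 differences may not be separate. The untested Tnfsf4 held 12 reads in CDDO-Me, found in all 4 libraries, against 2 in NASH vehicle, a ratio of 6.94 with a 95% counting interval of 1.54 to 63.8. Its CDDO-Me counts were 2, 2, 2 and 6, all even, so reads may have been counted in pairs and the interval may be too narrow. Without a filter on low counts, Tnfsf4 did not pass edgeR's test in this comparison (adjusted p = 0.298).

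Against control, CDDO-Me libraries had 18 of 31 tested members higher, 0 lower and 13 not passing, beside 26.2% of all genes higher and 23.6% lower. The median log2 fold change was 1.29 over the tested members and 0.03 over all genes. Higher were 7 of 9 ligands, 2 of 5 death domain receptors, 6 of 13 TRAF-binding receptors and 3 of 4 decoys. Of the 31, 17 had fewer than 10 reads in at least 1 control library and passed the filter at least in part through the NASH groups. These counts and the median therefore support nothing by themselves. This comparison shares its controls and its CDDO-Me libraries with the other comparisons, so its values are only set beside them. Tnf had 4.21 ± 0.60 (SE; adjusted p = 6.96e-05), Ltb 3.32 ± 0.42 (SE; adjusted p = 3.72e-05) and Cd40 3.51 ± 0.45 (SE; adjusted p = 3.04e-05). Tnfsf12 had 0.85 ± 0.11 (SE; adjusted p = 4.45e-05) and Tnfrsf12a 1.09 ± 0.15 (SE; adjusted p = 4.84e-05). Tnfrsf23 had 2.97 ± 0.36 (SE; adjusted p = 1.85e-05) and Tnfrsf22 1.54 ± 0.33 (SE; adjusted p = 0.00165). Fasl (1.95 ± 1.07, SE), Tnfrsf14 (0.16 ± 0.28) and Tnfrsf18 (0.50 ± 0.46) did not pass. Tnfrsf21 did not pass in edgeR with control 3 and did without it (1.68, adjusted p = 1.25e-06). With control 3 it passed in limma-voom (1.02, adjusted p = 0.038) and in limma on log2(TPM + 1) (1.40, adjusted p = 0.0149). Calls were lost for Tnfsf9 without any 1 of controls 1 and 2, NASH vehicle 4 or CDDO-Me 1, 3 and 4 (adjusted p of 0.0509 to 0.11), for Tnfrsf11a without any 1 of controls 2 and 4, NASH vehicle 3 and 4 or CDDO-Me 1, 3 and 4 (0.0503 to 0.0804), and for Tnfsf13 without any 1 of controls 1 and 4 or CDDO-Me 4 (0.0617 to 0.1). With unique reads the calls of Tnfrsf22 (1.44, adjusted p = 0.151), Tnfsf9 (1.17, adjusted p = 0.318) and Tnfsf13 (1.35, adjusted p = 0.0622) were lost in edgeR. Tnfrsf4, Tnfrsf8 and Tnfrsf9 were called without 1 control library, control 1 for Tnfrsf4 (0.0471) and Tnfrsf9 (0.00748) and control 3 for Tnfrsf8 (0.00187). With all libraries kept, Tnfrsf8 (adjusted p = 0.0249) and Tnfrsf9 (0.0308) passed in limma-voom, and Tnfrsf4 on library totals without TMM (0.0377, edgeR). Without control 3 and CDDO-Me 4, 20 of 33 were higher and 0 lower, beside 25.5% of all genes higher and 20.6% lower. On library totals without TMM 21 of 31 were higher, beside 8678 of all genes higher and 1125 lower where TMM gave 4317 and 3881.

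Genes that act with the ligands and receptors were taken from 4 lists of 52 genes in all, each of them tested. In NASH vehicle against control 24 were higher and 15 lower, in CDDO-Me against NASH vehicle 4 higher and 10 lower, and in CDDO-Me against control 22 higher and 11 lower, beside the shares of all genes given above. Their median log2 fold changes were 0.16, -0.13 and 0.12. This split depends on the scaling: on library totals without TMM, 41 were higher and 0 lower in NASH vehicle against control.

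Shedding and mRNA control genes were mostly higher in NASH vehicle, 8 of 11 with 1 lower (10 and 0 on library totals without TMM), and with CDDO-Me 0 were higher and 3 lower than in NASH vehicle. Rhbdf2 and Rhbdf1 encode the inactive rhomboids that carry ADAM17, the TNF-converting enzyme, to the cell surface. Rhbdf2 was at 9.3, 13, 10.2 and 10.2 CPM in the controls, 33.3, 32.7, 38.9 and 36.4 in NASH vehicle and 26.9, 32.4, 23 and 28.7 with CDDO-Me, and rose in NASH vehicle by 1.73 ± 0.13 (SE; adjusted p = 1.81e-07). Rhbdf1 was at 9.64, 6.27, 10.9 and 9.12 CPM in the controls, 27.9, 29.7, 29.7 and 30.7 in NASH vehicle and 20.9, 16.7, 14.7 and 22.5 with CDDO-Me. It rose by 1.71 ± 0.16 (SE; adjusted p = 1.47e-06) and fell with CDDO-Me, where the log2 fold change was -0.65 ± 0.16 (SE; adjusted p = 0.0121). Adam17 was at 24.9, 24.4, 27.5 and 27.4 CPM in the controls, 37.7, 45.6, 45.7 and 48.4 in NASH vehicle and 25.7, 27.6, 27.6 and 31.8 with CDDO-Me. Every CDDO-Me library was below every NASH vehicle library and the CDDO-Me and control groups overlapped, with a log2 fold change against NASH vehicle of -0.65 ± 0.09 (SE; adjusted p = 4.79e-04).

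Of 12 death signalling genes 4 were higher and 4 lower in NASH vehicle against control (8 and 0 on library totals without TMM), and 0 were higher and 2 lower in CDDO-Me against NASH vehicle. Zbp1, a nucleic acid sensor that can start necroptosis, was at 3.8, 3.51, 3.59 and 2.86 CPM in the controls, 16.7, 14, 12.2 and 15.9 in NASH vehicle and 9.89, 7.05, 5.98 and 6.68 with CDDO-Me. It rose in NASH vehicle by 2.10 ± 0.18 (SE; adjusted p = 5.74e-07) and fell with CDDO-Me, by 0.99 ± 0.17 (SE; adjusted p = 0.00147) on the log2 scale. Mlkl, the pore-forming effector of necroptosis, was at 3.46, 3.97, 4.66 and 3.8 CPM in the controls, 13.5, 10.3, 12.2 and 14.2 in NASH vehicle and 13.5, 10.9, 11.5 and 11.2 with CDDO-Me. Its groups under CDDO-Me and NASH vehicle overlapped, and it rose in NASH vehicle by 1.66 ± 0.14 (SE; adjusted p = 6.31e-07).

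Of 10 ubiquitin editing genes 5 were higher and 3 lower in NASH vehicle against control (8 and 0 on library totals without TMM), and 0 higher and 1 lower in CDDO-Me against NASH vehicle. Tnip1, a partner of the inhibitory protein A20, was at 10.2, 10.6, 15.8 and 11 CPM in the controls, 39.4, 56.2, 47.6 and 58.4 in NASH vehicle and 42.5, 35.7, 35.6 and 41.5 with CDDO-Me, and rose in NASH vehicle by 2.08 ± 0.16 (SE; adjusted p = 2.38e-07). Sharpin, a subunit of the linear ubiquitin ligase, was at 34.1, 39.9, 34.4 and 38.6 CPM in the controls, 21.4, 22.1, 24.2 and 22.9 in NASH vehicle and 23.1, 24.8, 24.1 and 25.5 with CDDO-Me. It was lower in CDDO-Me than in control, with -0.59 ± 0.08 (SE; adjusted p = 3.81e-05), but on TPM values the direction turned (0.02, adjusted p = 0.914, limma).

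Of 19 adaptors and kinases 7 were higher and 7 lower in NASH vehicle (15 and 0 on library totals without TMM), and 4 higher and 4 lower in CDDO-Me against NASH vehicle. Map3k14 encodes NIK, the kinase of the non-canonical NF-kappaB pathway used by the lymphotoxin beta receptor, CD40, BAFF receptor and FN14. Map3k14 was at 3.92, 5.07, 4.85 and 3.17 CPM in the controls, 14.8, 15.6, 15.9 and 17 in NASH vehicle and 11.3, 10.1, 11.9 and 13.1 with CDDO-Me, and rose in NASH vehicle by 1.89 ± 0.15 (SE; adjusted p = 3.03e-07). Ikbkg, the regulatory subunit of the IKK complex, was at 85.4, 104, 67.5 and 101 CPM in the controls, 73.3, 77.2, 74.3 and 65.9 in NASH vehicle and 109.8, 127, 123 and 123 with CDDO-Me. It was higher with CDDO-Me than in NASH vehicle, by 0.73 ± 0.12 (SE; adjusted p = 0.00128). Chuk, the catalytic subunit IKK alpha, was at 120.0, 139, 107 and 145 CPM in the controls, 94, 75.3, 74 and 67.2 in NASH vehicle and 101, 115, 126 and 100.2 with CDDO-Me, and rose with CDDO-Me by 0.51 ± 0.13 (SE; adjusted p = 0.0153), a call lost without NASH vehicle 4 (adjusted p = 0.0591) or CDDO-Me 3 (0.0555). Ripk1, the kinase bound to TNF receptor 1, was at 41.6, 40.8, 33.3 and 33.8 CPM in the controls, 34.4, 32.9, 35.1 and 32.4 in NASH vehicle and 25.1, 26.1, 28.9 and 26.2 with CDDO-Me. It fell with CDDO-Me, where the log2 fold change was -0.34 ± 0.09 (SE; adjusted p = 0.0176), a call lost without NASH vehicle 3 (adjusted p = 0.0548), CDDO-Me 1 (0.0527) or CDDO-Me 2 (0.0549).

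**Figure D5:**
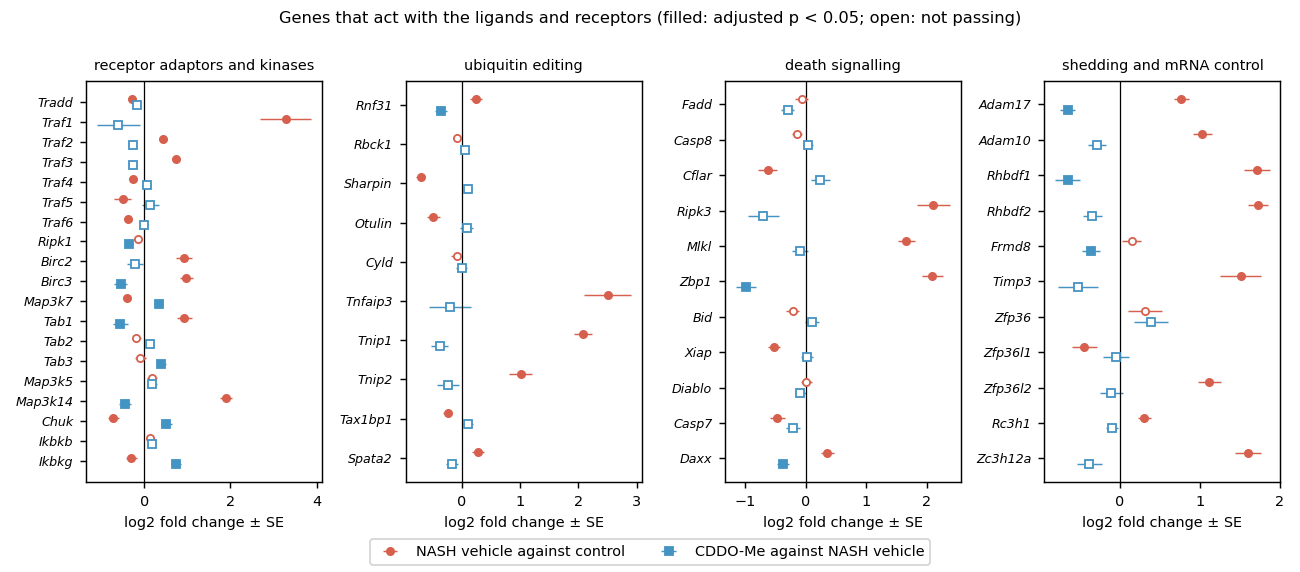
Log2 fold change (horizontal axes, edgeR, bars are SE) of 51 of the 52 genes in 4 lists for NASH vehicle against control (circles) and CDDO-Me against NASH vehicle (squares); filled symbols passed an adjusted p of 0.05. Among those drawn, circles are filled for 24 higher and 14 lower genes, and squares for 4 higher and 10 lower genes.

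A further 10 genes related to the superfamily but outside the name rule were counted in the same way, 9 of them tested. They include receptors without a Tnfrsf symbol, binding partners of HVEM and genes that are neither. In NASH vehicle against control 7 were higher and 0 lower, in CDDO-Me against NASH vehicle 0 higher and 1 lower, and in CDDO-Me against control 6 higher and 0 lower. Of all genes, 29.6%, 9.39% and 26.2% were higher and 30.0%, 7.24% and 23.6% lower in these comparisons. The median log2 fold changes of the 9 genes were 2.68, -0.38 and 2.13, beside -0.01, -0.01 and 0.03 over all genes.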

How the data were processed

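RNA-seq of 12 mouse liver samples was used, 4 per group, as whole-gene tables, 1 library each. Libraries were poly(A)-selected and sequenced as 75 bp paired ends, per the labels' protocols. The build is GRCm38, per the submitters' processing notes. Aligner, counter and the counting of read pairs were not given in the sources used here. Per the file headers, the authors deposited counts of total, unique, exon and intron reads per gene, TPM, RPKM, and the fraction of exon reads that are unique. RPKM was not used.

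Total gene reads were tested with edgeR 4.0.16 (R 4.3.3): filterByExpr (minimum count 10), TMM, and the quasi-likelihood test over all 12 libraries with Benjamini-Hochberg adjustment over 16456 genes. A call is an adjusted p under 0.05. SE was taken as |log2 fold change| over √F of that test, and intervals are 1.96 SE each way, approximate. The ratio of receptor TPM was tested by exact permutation. Counting intervals and floors (3 reads for a count of 0 over a group) cover counting error only. The fits were tested on simulated data.

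Alternatives used DESeq2 1.42.0, limma 3.58.1, other scalings, unique or exon reads, other filters and left-out libraries. The labels do not say that replicates are separate mice, so p-values measure the spread between these samples, which may be technical. Replicate numbers did not pair the libraries: deviations of same-numbered libraries correlated at -0.223 to 0.187 over 12 pairs. Members follow the name rule. All tested members could be named, and of the pathway lists the 6 genes with the lowest p in each comparison, of which 1 is not reported here. Members and lists were chosen with earlier results of these data known.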

Additional observations from a re-analysis of the deposited data

Results flagged for a closer look

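Of 93 groups of 4 libraries looked at, 3 had 1 library far from the others by Dixon's test, which chance gives in about 1 in 20 groups. Tnfrsf21 was at 27.1 CPM in control 3 and at 4.34 to 5.57 CPM in the other controls. Tnfrsf8 was at 0.370 CPM in control 3 and at 0 in the other controls. Tnfrsf4 was at 0.461 CPM in control 1 and at 0.148 to 0.184 CPM in the other controls. Of the 3, 2 were in control 3.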

How the results depend on the processing

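Members higher in NASH vehicle against control numbered 20 to 23 on leaving out each library in turn, those in CDDO-Me against control 16 to 20, and with the replicate number as a block 21 and 18. The 3 members lower in CDDO-Me against NASH vehicle became 7 with DESeq2, 7 with limma-voom, 9 with limma on log2(TPM + 1), 8 when only the 8 libraries of the groups compared were fitted, 10 without control 3 and CDDO-Me 4, and 0 when a 2-fold change was also required. Of all genes, 7.24% were lower, and under these settings 11.2, 9.62, 15.0, 9.79, 12.1 and 2.20%. Leaving out each library in turn gave 2 to 6, with 5 without control 1 and 6 without control 3 (7.23 and 8.94% of all genes), and the replicate block gave 3. The cause was not tested. No member turned direction past the threshold. The replicate numbers share only a number: 0 of 12 libraries correlated best with their own number. Sharpin, lower in CDDO-Me against control, was at 0.0173 on log2(TPM + 1) and 0.0179 on log2(TPM + 0.1). Genes of all kinds called higher and lower in NASH vehicle against control, 4874 and 4945, became 11005 and 882 on log2(TPM + 1). Members with fewer than 10 reads in a control library are limited by depth.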
